A study of Mus musculus with 8 samples.

Results

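The 10 genes described here were chosen by name as enzymes that oxidize retinol and retinal, although Rdh11, Rdh13 and Rdh14 are described below as retinal reductases. They are the retinaldehyde dehydrogenases Aldh1a1, Aldh1a2 and Aldh1a3, the alcohol dehydrogenases Adh1, Adh5 and Adh7, and the retinol dehydrogenases Rdh10, Rdh11, Rdh13 and Rdh14. All 10 passed the filter on low counts, among 17997 genes tested of 36047 in the deposited files. RNA came from nGFP+ muscle stem cells (MuSCs) sorted from the gastrocnemius and quadriceps of 5- to 6-month-old male Pax7-nTnG mice. In this strain a tamoxifen-induced Cre under Pax7 control (Pax7CreERT2) switches the Rosa26 nTnG reporter to nuclear GFP, and mice on both diets carried both alleles and had received tamoxifen. For 8 weeks 3 mice had a vitamin A-free (VA-free) diet and 2 control mice had normal mouse chow, so other components of the diets and the absence of vitamin A cannot be told apart. The RNA of a mouse was split into technical replicates A and B, of which 8 libraries were sequenced. On the VA-free diet these were 1B, 2A, 3A and 3B, and control mice 1 and 2 each gave an A and a B library.

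Vitamin A reaches cells as retinol. Cytosolic alcohol dehydrogenases of the Adh family and membrane-bound short-chain dehydrogenases of the Rdh family convert retinol to retinal, a step that can run in both directions. The Aldh1a enzymes then oxidize retinal irreversibly to retinoic acid, which binds nuclear receptors and controls transcription, so these enzymes set where retinoic acid is made.

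Each library held 44831232 to 88650428 estimated counts. Levels are given as CPM, the count scaled to a fixed library total with TMM, or as TPM where genes are compared with each other, since TPM takes transcript length into account as well. Changes are log2 fold changes of VA-free over control with their standard errors (SE), from edgeR's quasi-likelihood test on the summed counts of 3 VA-free and 2 control mice, and a gene passed the test at a Benjamini-Hochberg adjusted p under 0.05. The MuSC label was checked against 10 MuSC markers, all detected in every library and all higher on the VA-free diet. Their summed level was 6379 to 7195 CPM in VA-free and 1734 to 4063 CPM in control libraries. Both ends of the control range came from control mouse 2 (2A at 1734 CPM, 2B at 4063 CPM), and 1A and 1B had 2751 and 3137 CPM. Markers of other cell types are counted where they passed the test. Over all genes tested, 18.9% passed as higher and 22.5% as lower on the VA-free diet. Endothelial markers fell in 12 of 12 genes (289 to 388 CPM in VA-free and 1816 to 4964 CPM in control libraries). Tenocyte markers fell in 6 of 7 (43.9 to 70.9 and 669.9 to 1180 CPM) and erythroid markers in 4 of 5 tested of 6 (28.8 to 243 and 1302 to 1909 CPM). Macrophage markers fell in 4 of 11 (24.8 to 161 and 182 to 943 CPM). The log2 fold changes of the macrophage markers Csf1r (0.07) and Mrc1 (0.44) lay above 0 and did not pass. Of 12 markers of fibro-adipogenic progenitors, the mesenchymal cells of muscle, 7 fell and Col3a1 rose, with a summed level of 17320 to 19710 CPM in VA-free and 9553 to 15740 CPM in control libraries. Most of that sum was Col3a1 (means of 11220 CPM on the VA-free and 4304 CPM on the control diet) and Gsn (5918 and 5206 CPM). The median log2 fold change of the 12 markers was -3.09. Pericyte and smooth muscle markers fell in 5 of 9 genes and rose in 1 (1732 to 2019 and 2740 to 3352 CPM), and myofiber markers fell in 5 of 10 (330 to 425 and 458 to 548 CPM). Schwann cell markers fell in 7 of 8 and rose in 1 (514 to 598 and 491 to 860 CPM), with a median log2 fold change of -3.90. The 1 that rose was Ncam1 (means of 516 CPM on the VA-free and 220 CPM on the control diet), most of the VA-free sum. Only control 2A (491 CPM) lay below the VA-free libraries, and control 1A, 1B and 2B lay above them (744, 798 and 860 CPM). Ackr1, Cdh19 and Kera were each at 0 in 1 VA-free library and Mrc1 in 1 control library. The part of these cell types in the results below was not tested, and fewer cells of a type and less RNA per cell cannot be told apart in bulk RNA.

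**Figure D1:**
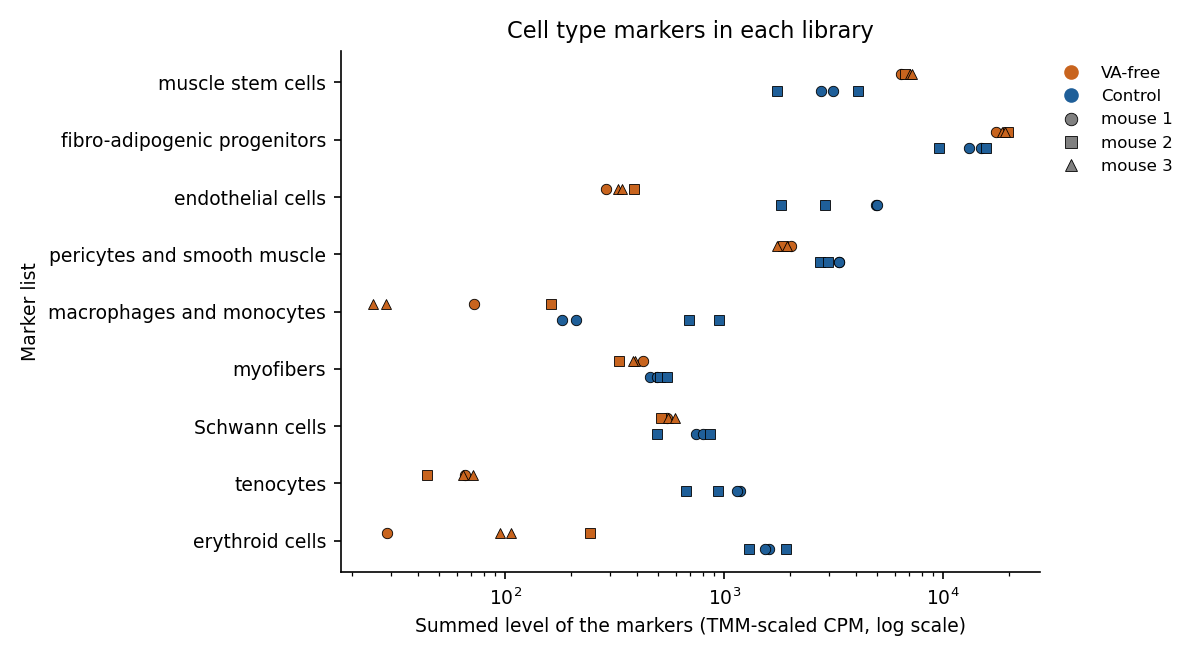
Summed level of each list of cell type markers (x axis, TMM-scaled CPM on a log scale) in each library, with VA-free libraries in orange, control libraries in blue and the symbol giving the mouse. The sums of MuSC and of fibro-adipogenic markers, the latter mostly Col3a1 and Gsn, were higher in every VA-free library than in any control library. Those of endothelial, tenocyte, erythroid, macrophage, pericyte and smooth muscle, and myofiber markers were lower. Those of Schwann cell markers, on the VA-free diet mostly Ncam1, overlapped through control 2A.

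Technical replicates give the scale for these levels. The ratio of the larger to the smaller CPM of A and B over the 10 genes had a median of 1.054 in VA-free mouse 3, of 1.14 in control mouse 1 and of 1.53 in control mouse 2. The largest ratio was 3.23, for Aldh1a3 in control mouse 2. Control 2A stood apart from 2B also over all genes tested, where their log2 ratio correlated with GC content (Spearman's rho -0.34) and with gene length (-0.314), beside -0.069 and -0.077 for VA-free 3A over 3B. The values of Adh1, Aldh1a1, Aldh1a2, Aldh1a3, Adh5, Rdh10 and Rdh14 are therefore given also without it.

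Of the 10 genes, 5 passed the test. Aldh1a2 and Rdh13 rose on the VA-free diet, and Adh1, Aldh1a3 and Rdh14 fell. Over all genes tested, 41.4% passed in either direction, 18.9% as higher and 22.5% as lower, so the count of enzymes called lay near that of all genes. The levels of the mice did not overlap between diets for 7 of the 10 genes, against 63.3% of all genes tested, and the levels of the libraries did not overlap for 4 of the 10, against 41.3%. The median log2 fold change of the 10 genes was -0.20, beside 0.003 for all genes. Without control library 2A, which differed most from its technical replicate, 4 of the 10 passed, and without control mouse 2, 6 passed. The 5 called genes therefore moved in both directions within the Aldh1a and the Rdh family.

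**Figure D2:**
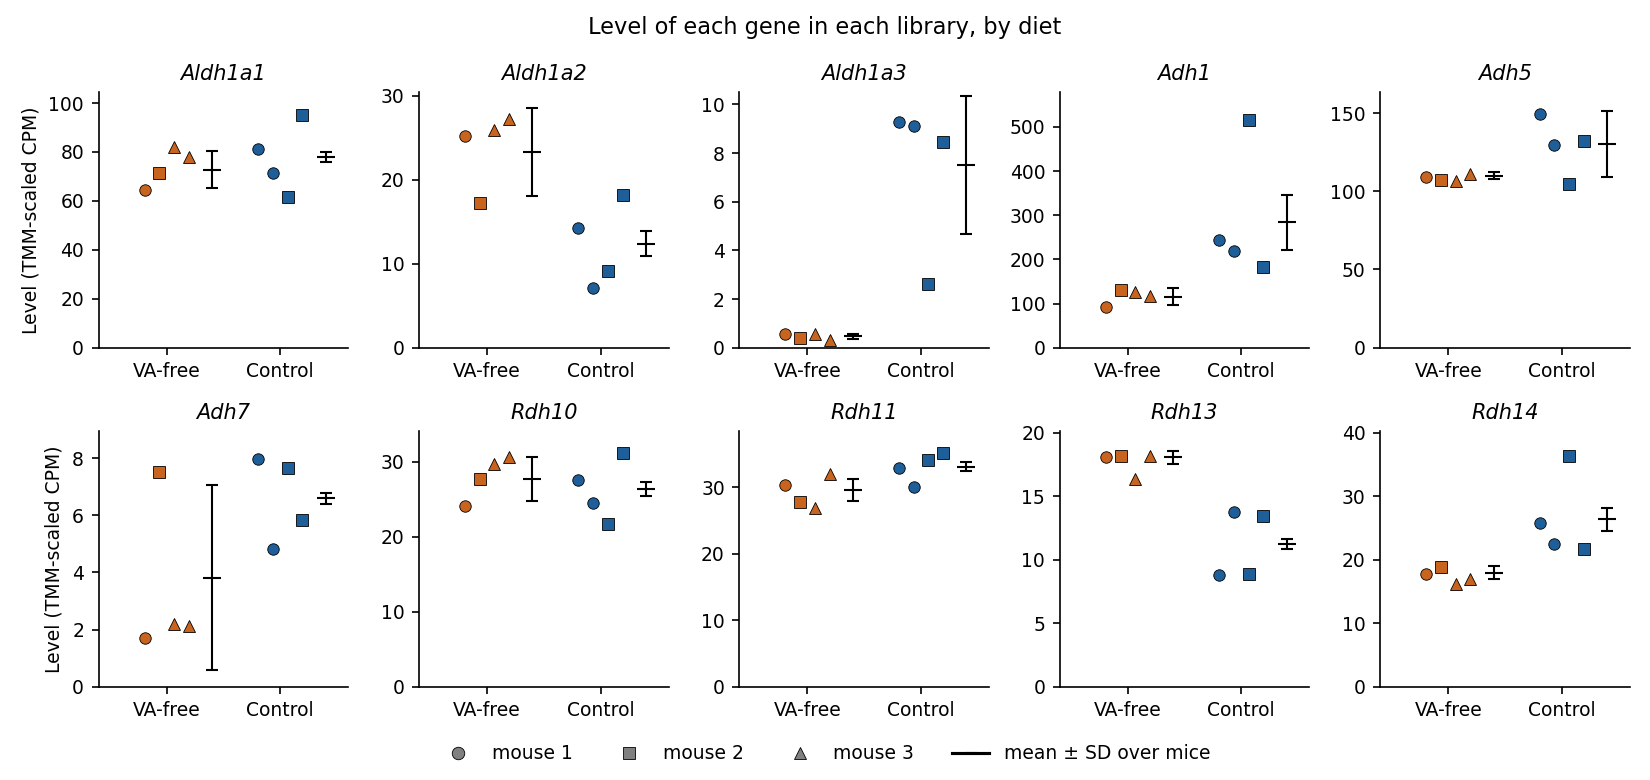
Level of each of the 10 genes (y axis, TMM-scaled CPM, starting at 0) in each library, with VA-free in orange and control in blue, the symbol giving the mouse and the bar the mean ± SD over mice. Libraries of the diets stand apart for Adh1, Aldh1a3, Rdh13 and Rdh14 and overlap for the other 6 genes.

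**Figure D3:**
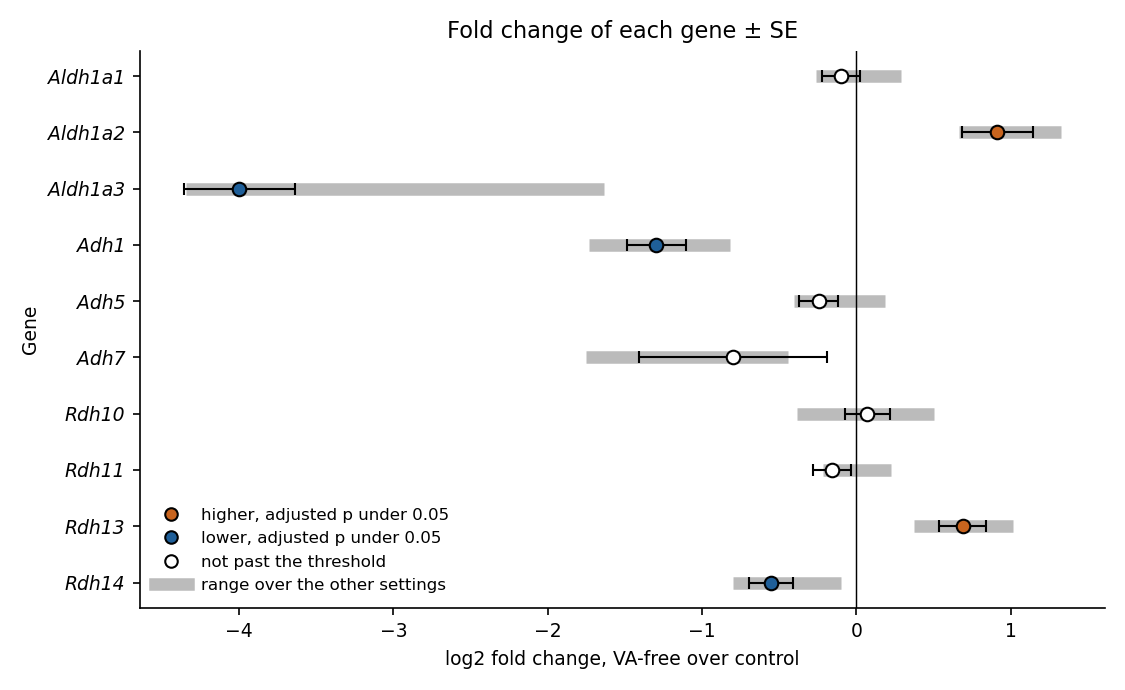
Log2 fold change of VA-free over control (x axis) for each gene with its SE, filled where the adjusted p was under 0.05, over a grey bar with the range from the other settings tried. Adh1 and Aldh1a3 lie below 0 over the whole grey bar, whereas the bars of Aldh1a1, Adh5, Rdh10 and Rdh11 cross 0.

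On the TPM scale, which allows genes to be ranked, Adh1 had the highest mean over the 5 mice (214 TPM), followed by Adh5 (147 TPM), Aldh1a1 (61.7 TPM), Rdh11 (24.3 TPM), Rdh14 (23.7 TPM), Aldh1a2 (14.6 TPM), Rdh10 (12.8 TPM), Rdh13 (9.49 TPM), Adh7 (2.93 TPM) and Aldh1a3 (1.73 TPM). Between neighbours in this order, the TPM of the 8 libraries did not overlap for Adh5 (98.5 to 161 TPM) and Aldh1a1 (38.3 to 74.1 TPM), nor for Aldh1a1 and Rdh11 (19.3 to 28.5 TPM). All other neighbours overlapped, and the order of some changed with diet. Rdh11 and Rdh14 had 25.8 and 23.1 TPM on the VA-free but 22.0 and 24.8 TPM on the control diet, and Aldh1a2 and Rdh10 had 19.2 and 14.6 TPM but 7.54 and 10.2 TPM.

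Adh1 encodes the class I alcohol dehydrogenase, which oxidizes retinol and ethanol. Its level was 91.2, 129.5, 125.5 and 118 CPM in the VA-free libraries (1B, 2A, 3A, 3B) and 243, 218, 515 and 182 CPM in control 1A, 1B, 2A and 2B. Every VA-free library lay below every control library, and control 2A stood far above the others. Over the 3 VA-free mice the mean was 115 ± 19.4 CPM (SD) and over the 2 control mice 283.5 ± 62.3 CPM (SD), a fall of 2.46-fold (log2 fold change -1.30, SE 0.19, adjusted p = 0.00216). In the 26 other settings tried it lay between -1.73 and -0.82 and passed each time. Control 2A and 2B came from the same mouse, and their ratio for Adh1 was 2.83. Without control library 2A the log2 fold change was -0.87 (adjusted p = 0.00833), and without control mouse 2 it was -1.06 (adjusted p = 0.00809).

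Adh1 lies at chr3:138260991-138290698 on the plus strand (GRCm38), in a stretch of 238 kb that runs from Adh7 to Adh5. Of its estimated counts, 67.0 to 73.7% were on the protein-coding transcript Adh1-201 in the 8 libraries and 26.3 to 32.8% on Adh1-202, a transcript annotated for nonsense-mediated decay. These shares overlapped between the diets. Of the 1085 short sequence words of Adh1-202 by which reads are assigned, only 26 occur in no other Adh1 transcript. Few words thus mark Adh1-202, and whether it fell along with Adh1-201 was not tested. Adh1-204, which starts further upstream, held 6.96 counts in control 2A and 18.6 in control 2B and none in the other 6 libraries.

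Adh5 encodes the class III enzyme, a glutathione-dependent formaldehyde dehydrogenase that also accepts retinol poorly. Its level was 109, 107, 106.5 and 111 CPM in the VA-free libraries and 149, 130, 105 and 132.5 CPM in the control libraries. The VA-free libraries lay close together, and only control 2A came down to their level. The means were 110 ± 2.33 CPM over 3 VA-free mice and 130 ± 20.9 CPM over 2 control mice (SD), a difference that did not pass the test (log2 fold change -0.25, SE 0.13, adjusted p = 0.173). It passed without control library 2A (-0.34, adjusted p = 0.0312) and without control mouse 2 (-0.41, adjusted p = 0.0236).

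Adh7 encodes the class IV enzyme, which is efficient with retinol and is best known from epithelia. Its level was 1.70, 7.52, 2.20 and 2.11 CPM in the VA-free libraries (1B, 2A, 3A, 3B) and 7.98, 4.83, 7.66 and 5.83 CPM in the control libraries. Mouse 2 of the VA-free diet reached the control levels, whereas mice 1 and 3 lay below all control libraries. The means of 3.82 ± 3.23 CPM (SD, n = 3) and 6.60 ± 0.189 CPM (SD, n = 2) did not differ past the threshold (log2 fold change -0.80, SE 0.61, adjusted p = 0.339). Without VA-free mouse 2 the log2 fold change was -1.75 (adjusted p = 0.00905), and with limma-voom on the 8 libraries it was -1.28 (adjusted p = 0.0282). Among the VA-free libraries, 2A also held the highest summed level of macrophage (161 CPM), erythroid (243 CPM), endothelial (388 CPM) and fibro-adipogenic markers (19710 CPM). It held the lowest of tenocyte (43.9 CPM), myofiber (330 CPM) and Schwann cell markers (514 CPM). The part of any of these cells was not tested.

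In the Adh family, Adh1 made up 45.6 to 54.5% of the summed TPM in the VA-free libraries and 57.0 to 82.3% in the control libraries. The share of Adh5 was 44.3 to 53.9% and 17.1 to 41.8%, and that of Adh7 was 0.368 to 1.19% and 0.598 to 1.19%. The summed TPM of the family was 320 ± 20.3 (SD, n = 3) on the VA-free and 430.5 ± 56.2 (SD, n = 2) on the control diet. On the control diet Adh1 was thus the leading transcript of the family in every library, and on the VA-free diet Adh1 and Adh5 were near parity, with Adh5 ahead in VA-free 1B.

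The Rdh enzymes are short-chain dehydrogenases. Rdh10 carries out retinol oxidation at the endoplasmic reticulum and is required for retinoic acid synthesis in the embryo. Its level was 24.1, 27.8, 29.8 and 30.7 CPM in the VA-free and 27.5, 24.6, 21.7 and 31.1 CPM in the control libraries, and the diets overlapped. The means were 27.7 ± 2.99 CPM (SD, n = 3) and 26.4 ± 0.907 CPM (SD, n = 2), with a log2 fold change of 0.07 (SE 0.14, adjusted p = 0.738). The sign was not stable. It was -0.07 without control library 2A, -0.39 after removal of the trend with gene length, and 0.47 and 0.50 in limma on log2(TPM + 1) and log2(TPM + 0.1), where it passed the test (adjusted p = 0.0448 and 0.0372) while the median of all genes moved to 0.19 and 0.35.

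Rdh11 prefers NADPH and acts mainly as a retinal reductase, in the reverse direction. Its level was 30.4, 27.7, 26.9 and 32.0 CPM in the VA-free and 32.8, 30.0, 34.1 and 35.2 CPM in the control libraries. The libraries overlapped although the mice did not. The means were 29.6 ± 1.68 CPM (SD, n = 3) and 33.1 ± 0.653 CPM (SD, n = 2), with a log2 fold change of -0.16 (SE 0.12, adjusted p = 0.347). Its counts were divided between Rdh11-203 (43.5 to 63.7%) and the shorter Rdh11-201 (29.0 to 55.8%), with no separation of the diets.

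Rdh13 is a retinal reductase of mitochondria. Its level was 18.1, 18.2, 16.3 and 18.2 CPM in the VA-free libraries (1B, 2A, 3A, 3B) and 8.81, 13.7, 8.90 and 13.4 CPM in control 1A, 1B, 2A and 2B. All VA-free libraries lay above all control libraries, and the technical replicates of both control mice differed from each other by more than the 3 VA-free mice did. Per mouse the means were 18.1 ± 0.508 CPM over 3 VA-free mice and 11.2 ± 0.398 CPM over 2 control mice (SD), a rise of 1.61-fold (log2 fold change 0.69, SE 0.15, adjusted p = 0.0104). The call was lost without control library 1A (0.53, adjusted p = 0.0701), with the replicate block (0.71, adjusted p = 0.0696) and after removal of the length trend (0.40, adjusted p = 0.0839), and the direction held in all 26 settings. Rdh13-201, the coding transcript of 7 exons, held 84.2 to 89.4% of the counts in the 8 libraries.

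Rdh14 is related to Rdh11 and likewise reduces retinal. Its level was 17.8, 18.8, 16.1 and 17.0 CPM in the VA-free and 25.8, 22.4, 36.2 and 21.6 CPM in the control libraries. The libraries of the diets did not overlap, and control 2A again lay highest. The means were 17.9 ± 1.07 CPM over 3 VA-free mice and 26.3 ± 1.76 CPM over 2 control mice (SD), a fall of 1.47-fold (log2 fold change -0.55, SE 0.14, adjusted p = 0.0186). This call was lost in 10 of 26 settings, among them the removal of the trend with gene length (-0.28, adjusted p = 0.174), log2(TPM + 1) (-0.10, adjusted p = 0.583) and leaving out control library 2A (-0.38, adjusted p = 0.0716).

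Gene length was followed as a property that differs among these genes. Over the 17997 genes tested, the log2 fold change correlated with gene length across genes (Spearman's rho 0.378) and hardly with GC content (0.039), and genes are not independent replicates. The lengths, weighted by TPM over transcripts, were 3507 bases for Rdh10 and 2777 bases for Rdh13, and 2103 bases for Rdh11 and 1480 bases for Rdh14. Removing the trend with length moved Rdh10, Rdh13 and Rdh14 towards lower, lower and higher values, to -0.39, 0.40 and -0.28. Adh5 changed its sign, from -0.25 to 0.12, and Rdh11 went from -0.16 to -0.21. Adh1, at 1356 bases, kept its call without that trend (-0.93), and so did Aldh1a3, at 2731 bases (-4.27).

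Within the Rdh family, the summed TPM was 75.2 ± 1.29 (SD, n = 3) on the VA-free and 62.95 ± 4.12 (SD, n = 2) on the control diet. That sum was not tested. On the TPM scale the median log2 fold change of all genes was raised as well, to 0.19 on log2(TPM + 1) and 0.35 on log2(TPM + 0.1). The TPM of Rdh14 itself was 23.1 ± 1.79 and 24.8 ± 2.45, so its smaller share went with the higher sum. Rdh13 made up 15.8 ± 1.17% (SD, n = 3) on the VA-free and 9.38 ± 0.436% (SD, n = 2) on the control diet, Rdh14 30.6 ± 1.87% and 39.6 ± 1.77%, Rdh11 34.2 ± 1.48% and 34.9 ± 0.560%, and Rdh10 19.4 ± 1.87% and 16.2 ± 0.774%. The libraries did not overlap between the diets for Rdh13 (14.4 to 16.5% and 6.23 to 11.9%) and lay side by side for Rdh14 (27.9 to 31.9% and 32.0 to 49.7%).

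**Figure D4:**
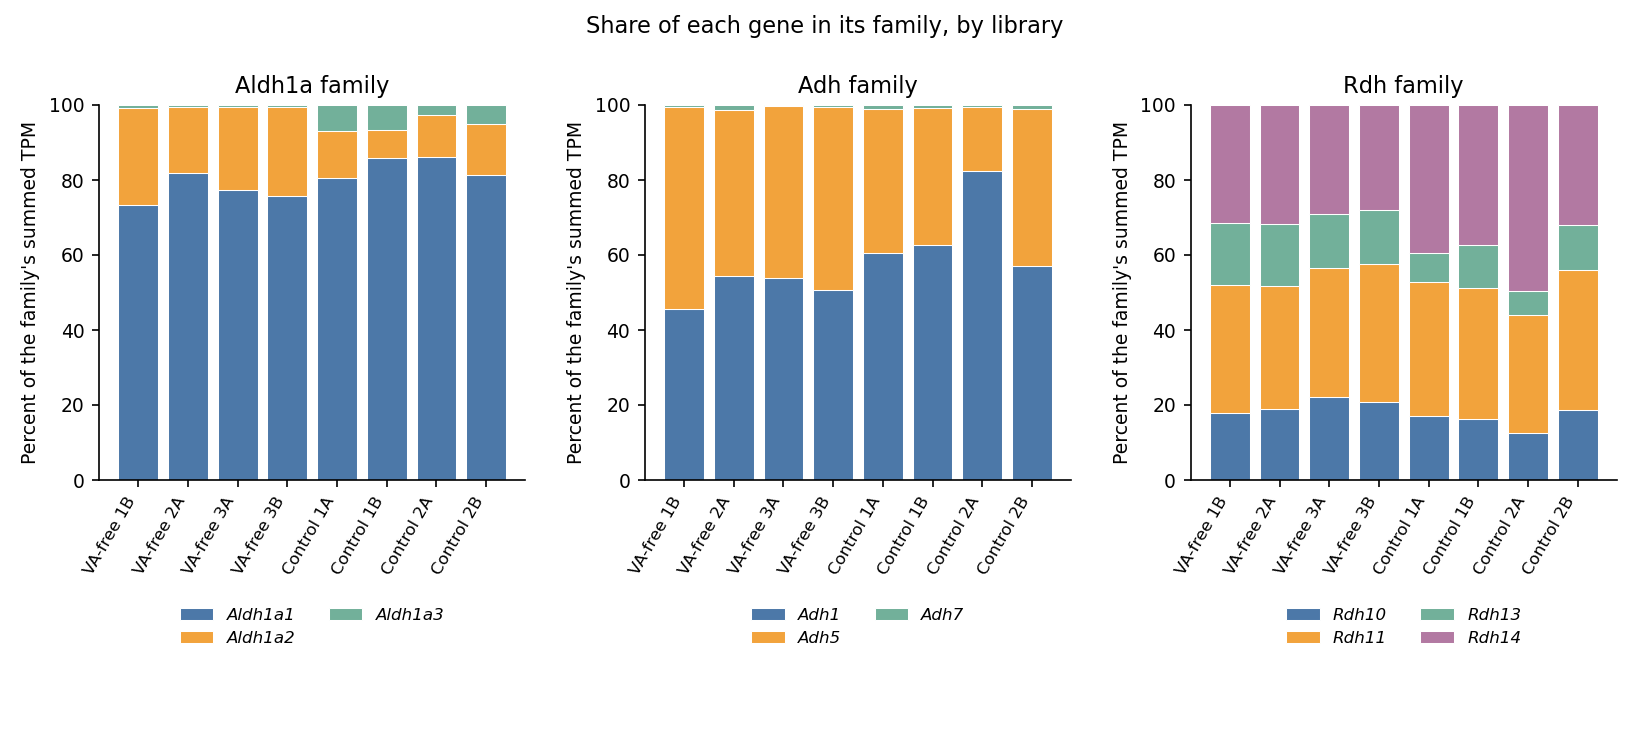
Share of each gene in the summed TPM of its family (y axis, percent) in each library (x axis), for the Aldh1a, Adh and Rdh families. Aldh1a2, Adh5 and Rdh13 took larger shares in the VA-free libraries, and Aldh1a3, Adh1 and Rdh14 took smaller ones.

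Of the Aldh1a enzymes, Aldh1a2 rose, Aldh1a3 fell and Aldh1a1 did not pass the test. Aldh1a1 was the most abundant in every library, at 73.5 to 81.7% of the family's summed TPM in the VA-free and 80.6 to 86.2% in the control libraries. The summed TPM of the family was 86.2 ± 7.57 (SD, n = 3) on the VA-free and 65.6 ± 1.502 (SD, n = 2) on the control diet, and control 2B (88.8 TPM) lay within the range of the VA-free libraries. The median log2 fold change of all genes was also raised on this scale, to 0.19 on log2(TPM + 1) and 0.35 on log2(TPM + 0.1). The family sum itself was not tested.

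Aldh1a1 had 64.6, 71.4, 82.0 and 77.8 CPM in the VA-free and 81.3, 71.6, 61.5 and 95.1 CPM in the control libraries. The diets overlapped, and the largest gap lay between control 2A and 2B of the same mouse. The means were 72.8 ± 7.48 CPM (SD, n = 3) and 78.03 ± 1.99 CPM (SD, n = 2), with a log2 fold change of -0.10 (SE 0.12, adjusted p = 0.563). Without control library 2A it was -0.26 (adjusted p = 0.161). On log2(TPM + 1) the difference was 0.28 (adjusted p = 0.0664), the sign thus depending on the scale. Aldh1a1 shared 281 of its 4934 distinct 31-mers, the word length by which Kallisto assigns reads, with Aldh1a7, a near copy 49.5 kb away. With the counts of both genes added, the log2 fold change was -0.13 (adjusted p = 0.440).

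The annotation gives Aldh1a1 (chr19:20492715-20643465, plus strand, GRCm38) a downstream start, used by Aldh1a1-201, and 109 kb upstream of it a cluster of starts used by the other 5 transcripts. Transcripts of the downstream start held 5995, 3973, 3691 and 3846 estimated counts in the VA-free libraries and 3634, 2968, 2538 and 4927 counts in the control libraries. Those of the upstream start held 59, 14, 34 and 20 counts in the VA-free and 464, 190, 420 and 199 counts in the control libraries. Scaled to CPM, the downstream start had 63.9 to 81.3 CPM and 52.8 to 91.4 CPM, whereas the upstream start had 0.257 to 0.743 CPM and 3.69 to 9.21 CPM. The upstream start thus gave 0.3596 to 0.982% of the gene's counts on the VA-free and 3.88 to 14.2% on the control diet, with no overlap between libraries, while the sum of both changed little. No test was run on transcripts, since no error of the transcript estimates was at hand. The upstream transcripts held 2911 31-mers that Aldh1a1-201 lacks, and none of these occur in another gene, Aldh1a7 included. Aldh1a1-201 itself held only 35 31-mers that the upstream transcripts lack, of which 2 occur in other genes, so few words mark the downstream start. On the TPM scale Aldh1a1-201 made up 98.8 to 99.5% of the gene on the VA-free and 82.3 to 93.6% on the control diet.

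Aldh1a2 encodes the main retinaldehyde dehydrogenase of mesoderm in the embryo. Its level was 25.2, 17.2, 25.9 and 27.2 CPM in the VA-free libraries (1B, 2A, 3A, 3B) and 14.2, 7.16, 9.15 and 18.2 CPM in control 1A, 1B, 2A and 2B. The mice did not overlap between the diets, but control 2B lay above VA-free 2A. The means were 23.3 ± 5.26 CPM over 3 VA-free mice and 12.4 ± 1.51 CPM over 2 control mice (SD), a rise of 1.88-fold (log2 fold change 0.91, SE 0.23, adjusted p = 0.0186). The technical replicates of control mouse 1 differed by a factor of 1.99 and those of control mouse 2 by 1.98, as much as the diets did. The log2 fold change lay between 0.66 and 1.32 over 26 settings and missed the threshold in 6 of them, with an adjusted p of up to 0.0936 without control library 2A (log2 fold change 0.66). Its share of the family's TPM was 17.8 to 25.8% on the VA-free and 7.42 to 13.7% on the control diet, without overlap. A single transcript is annotated, at chr9:71215789-71296243 on the plus strand, and none of its 2234 31-mers occur in another gene.

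Promoter windows are shown for Aldh1a1 and Aldh1a2, which carried most of the Aldh1a level on both diets. The upstream Aldh1a1 start gave at most 0.982% of the gene's counts on the VA-free diet. The sequences are from RefSeq (GRCm38.p6), from 250 bases before to 50 bases after the start, 5′ to 3′ on the plus strand. The upstream window of Aldh1a1 is chr19:20492333-20492632, the downstream window chr19:20601718-20602017 and that of Aldh1a2 chr9:71215539-71215838. The upstream window belongs to a RefSeq start at 20492583 and ends before 20492715, the first base of the upstream transcripts counted above. The bases between the window and those transcripts were not searched. Capitals mark exact matches on either strand. Searched were the CCAAT box (CCAAT), the octamer (ATGCAAAT) and GGGCGG (the GC box). Elements like the TATA box were searched under the spelling TATAAA, the variant TATATA or the variant ATAAAA. Half-sites of retinoid receptors were searched under the spelling AGGTCA, the variant AGTTCA or the variant GGGTCA. In the downstream window of Aldh1a1 the octamer and a half-site on the minus strand overlap by 1 base.
Aldh1a1 upstream: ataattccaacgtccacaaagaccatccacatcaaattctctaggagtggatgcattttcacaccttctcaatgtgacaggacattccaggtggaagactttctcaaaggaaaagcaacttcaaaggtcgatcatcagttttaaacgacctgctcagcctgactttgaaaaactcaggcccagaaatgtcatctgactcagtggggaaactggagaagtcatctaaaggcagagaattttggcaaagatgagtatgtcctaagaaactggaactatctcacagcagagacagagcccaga
Aldh1a1 downstream: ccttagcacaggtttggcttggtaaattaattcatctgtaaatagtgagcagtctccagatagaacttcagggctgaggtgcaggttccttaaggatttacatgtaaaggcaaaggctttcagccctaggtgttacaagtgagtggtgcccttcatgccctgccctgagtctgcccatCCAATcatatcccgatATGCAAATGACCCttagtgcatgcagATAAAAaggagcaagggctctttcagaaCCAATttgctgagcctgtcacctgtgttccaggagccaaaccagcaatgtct
Aldh1a2: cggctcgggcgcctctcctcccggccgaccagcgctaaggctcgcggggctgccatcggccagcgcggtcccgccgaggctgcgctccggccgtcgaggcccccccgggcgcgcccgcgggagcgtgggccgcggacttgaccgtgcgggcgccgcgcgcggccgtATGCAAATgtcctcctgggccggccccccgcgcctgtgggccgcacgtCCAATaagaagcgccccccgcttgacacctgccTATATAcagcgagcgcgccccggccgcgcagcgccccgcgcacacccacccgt

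The downstream Aldh1a1 window and the Aldh1a2 window both held the octamer, with its first base 56 and 84 bases before the start. The octamer occurred in 1.74% of the 32851 RefSeq promoter windows of this length, and it was added to the search after these sequences had been read. Both windows also held a CCAAT box, present in 37.4% of windows, and a TATA-like match, present in 27.4%. The positions differed. The TATA-like match began 30 bases before the start of Aldh1a1, but 3 bases before that of Aldh1a2, where it spanned the start. The CCAAT boxes began 72 and 2 bases before the start of Aldh1a1 and 36 bases before that of Aldh1a2. The downstream Aldh1a1 window alone held a retinoid receptor half-site, as 37.5% of windows do. In the upstream Aldh1a1 window none of these letters occurred. The Aldh1a2 window was 78% G and C, against 47.0% and 43.3% in the downstream and upstream windows of Aldh1a1, yet held no GC box, which 35.7% of windows hold. A match is a description of the letters and no evidence of binding. Promoter windows were matched for 7 of the 10 genes.

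Aldh1a3 encodes a retinaldehyde dehydrogenase known from the eye and nasal region of the embryo. It had 52, 22, 26 and 15 counts in the VA-free and 468, 402, 126 and 456 counts in the control libraries, or 0.555, 0.394, 0.573 and 0.302 CPM and 9.29, 9.11, 2.62 and 8.46 CPM. The lowest control library, 2A, still lay above every VA-free library. The means were 0.466 ± 0.0900 CPM over 3 VA-free mice and 7.52 ± 2.84 CPM over 2 control mice (SD), a fall of 16.0-fold (log2 fold change -4.00, SE 0.36, adjusted p = 0.000418), called in all 26 other settings. Without control library 2A the log2 fold change was -4.26 (adjusted p = 0.000186). Its share of the family's TPM was 0.3998 to 0.711% on the VA-free and 2.68 to 6.95% on the control diet.

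The transcripts of Aldh1a3 (chr7:66390890-66427517, minus strand) fell unequally. The full transcript of 13 exons, Aldh1a3-201, held 23, 12, 11 and 0 counts in the VA-free and 366, 373, 99 and 388 counts in the control libraries. The shorter coding transcripts of 7 exons held 29, 10, 15 and 15 counts and 103, 29, 27 and 68 counts. The 13-exon transcript thus made up 0 to 52.6% of the gene's counts on the VA-free and 78.1 to 92.8% on the control diet. On the TPM scale, which takes the greater length of this transcript into account, it made up 0 to 31.2% and 59.5 to 84.6%. The 7-exon transcripts contain 103 31-mers that also occur in other genes, 841 in number, whereas the 31-mers found only in the 13-exon transcript occur in no other gene. Reads from the shared words cannot be assigned to Aldh1a3 alone.

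**Figure D5:**
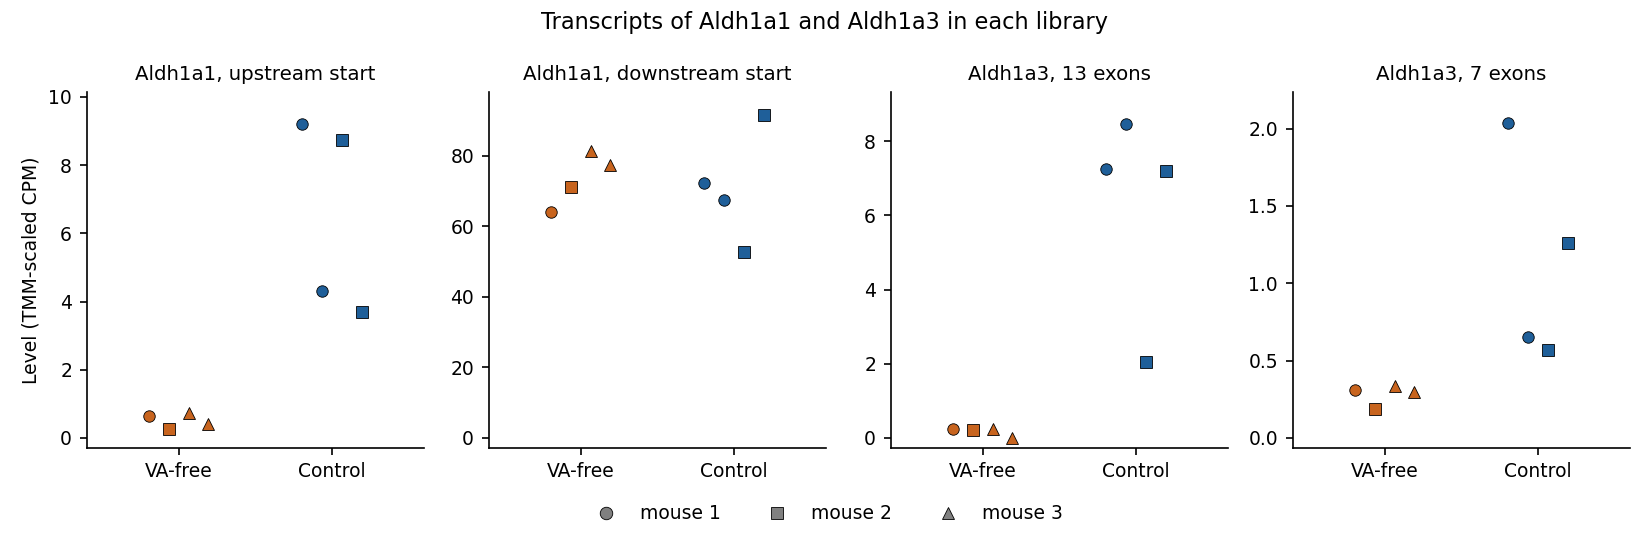
Level (y axis, TMM-scaled CPM) of the Aldh1a1 transcripts with the upstream and the downstream start and of the Aldh1a3 transcripts with 13 and with 7 exons in each library, with VA-free in orange, control in blue and the symbol giving the mouse. The upstream start of Aldh1a1 and the 13 exons of Aldh1a3 lie near 0 in all VA-free libraries, whereas the downstream start of Aldh1a1 overlaps between the diets.

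Set against the ratios between technical replicates, the 1.88-fold rise of Aldh1a2 was no larger than that between A and B of both control mice (1.99 and 1.98), and the 1.47-fold fall of Rdh14 was no larger than that in control mouse 2 (1.68). The rise of Rdh13 (1.61-fold) was just above the ratios of 1.56 and 1.51 in the control mice. The 2.46-fold fall of Adh1 was smaller than the ratio of 2.83 between A and B of control mouse 2. It was larger than those of 1.065 in VA-free mouse 3 and 1.113 in control mouse 1. For Rdh14 the ratios in these latter mice were 1.055 and 1.152. All these ratios are between single libraries, whereas the fold changes rest on the summed counts of the mice. The fall of Aldh1a3 was beyond any of these ratios.

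Near copies were checked for reads that could be split. Aldh1a7 had 0, 0, 0 and 7 counts in the VA-free and 63, 33, 83 and 175 counts in the control libraries and fell (log2 fold change -5.91, SE 1.18, adjusted p = 0.00729), a value that depends on the prior count. It shares 13.8% of its 31-mers with Aldh1a1. Rdh12, 16.6 kb from Rdh11, shares no 31-mer with Rdh11 and had 1.22, 1.31, 0.947 and 2.01 CPM in the VA-free and 3.69, 3.40, 2.02 and 1.99 CPM in the control libraries (log2 fold change -1.04, SE 0.38, adjusted p = 0.0673). Adding its counts to Rdh11 gave a log2 fold change of -0.21 (adjusted p = 0.206). Adh1 shares 44 of its 2227 31-mers with 2 other genes, most of them with Adh6-ps1, a pseudogene of the same family.

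A list of 32 other oxidoreductases held enzymes of retinoids and also enzymes, such as Hsd17b10, with other main substrates. Its counts therefore describe the list and not retinoid reactions alone. Of the 32 genes, 22 were tested. Of these 2 rose, 8 fell and 12 did not pass, with a median log2 fold change of -0.51, beside 18.9% higher and 22.5% lower over all genes tested and a median of 0.003. Among those that fell, the most abundant were Hsd17b10, a mitochondrial dehydrogenase of steroids and fatty acids (66.2 ± 5.75 CPM on the VA-free and 148 ± 16.9 CPM on the control diet, log2 fold change -1.16, adjusted p = 0.00075), Dhrs7 (50.1 ± 3.09 and 106.5 ± 12.8 CPM, -1.09, adjusted p = 0.000808) and Dhrs3, which reduces retinal to retinol (31.9 ± 3.11 and 59.7 ± 3.63 CPM, -0.90, adjusted p = 0.00194). The 2 that rose were Akr1b3, an aldose reductase that also accepts retinal (486 ± 32.6 and 352 ± 37.8 CPM, 0.47, adjusted p = 0.0254), and Aox1, an aldehyde oxidase that can form retinoic acid from retinal (39.4 ± 9.26 and 16.4 ± 1.19 CPM, 1.26, adjusted p = 0.00435). Rdh5, the most abundant gene of the list that did not pass, had 37.2 ± 3.25 and 37.2 ± 2.58 CPM (0.00, adjusted p = 0.997). All these are means ± SD of 3 VA-free and 2 control mice.

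For retinol supply, a list of 27 genes of uptake, storage and release held 20 that were tested, of which 3 rose, 6 fell and 11 did not pass, with a median log2 fold change of -0.22. Over all genes tested 41.4% passed, 18.9% as higher and 22.5% as lower. Lrp1, a receptor for chylomicron remnants, rose from 204 ± 5.39 to 790 ± 80.6 CPM (log2 fold change 1.95, adjusted p = 0.000254), and Dgat2, an acyltransferase of triglyceride synthesis, from 7.83 ± 1.34 to 14.6 ± 1.84 CPM (0.90, adjusted p = 0.0123). The most abundant genes that fell were Cd36, a fatty acid transporter (764 ± 173 to 69.6 ± 17.1 CPM, -3.46, adjusted p = 0.000246), Scarb1, the receptor for high-density lipoprotein (97.7 ± 50.7 to 37.3 ± 3.89 CPM, -1.39, adjusted p = 0.0092), and Rbp7, a retinol-binding protein (95.9 ± 0.346 to 7.22 ± 0.935 CPM, -3.73, adjusted p = 0.000127). Control 2A and 2B of the same mouse stood at 45.7 and 367 CPM for Lrp1, 22.2 and 101 CPM for Scarb1 and 154 and 49.9 CPM for Rbp7. The SD over mice does not show this gap. For Scarb1, control 2A lay below every VA-free library (32.2 to 42.3 CPM). Libraries of the diets did not overlap for Lrp1 and Rbp7. Cd36 and Rbp7 are also expressed by endothelial cells, whose markers fell in all 12 genes, and the part of these cells was not tested. Lpl, the lipoprotein lipase, had 220 ± 13.02 CPM on the VA-free and 217 ± 38.1 CPM on the control diet and did not pass (0.02, adjusted p = 0.928).

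Genes with the most similar pattern over the 8 libraries were sought for the most abundant member of each family, out of 9599 genes whose mean reached 10 CPM. Pearson's r of log2(CPM + 1) is a description here, since libraries share mice and control 2A stands apart. For Adh1 the closest were Ube2b (0.998), Mphosph8 (0.996) and Tmem218 (0.994), and libraries of the diets did not overlap for any of the 3. For Aldh1a1 they were Tcf19 (0.928), Bgn (0.920) and Ddah2 (0.893), and for Rdh11 Psph (0.957), Smox (0.874) and Slc39a11 (0.871). The diets overlapped for these last 6 genes, as they did for Aldh1a1 and Rdh11.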

How the data were processed

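The authors pseudo-aligned 75 bp single-end reads from SMART-Seq v4 and Nextera XT libraries to the GRCm38 transcripts (Ensembl 96) with Kallisto, version 0.46.2 in the submitters' processing notes. The deposited values are estimated counts per transcript, which were not normalized, and TPM, which is scaled by effective length and sums to 1000000 in each library. The authors themselves compared the diets with tximport and DESeq2.

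Here estimated counts were added per gene and per mouse and rounded. Transcripts without a gene (0.647 to 0.756% of counts) were left out of library sizes. edgeR 4.0.16 in R 4.3.3 was run with TMM, its expression filter, the quasi-likelihood test and Benjamini-Hochberg adjustment over 17997 genes, tested on simulated data beforehand. The SE is the log2 fold change divided by the square root of F. With 2 control mice, the spread on that diet rests on 1 difference. Alternatives were other scalings, DESeq2 1.42.0, limma-voom and limma 3.58.1 on log2(TPM + 1) or log2(TPM + 0.1), trends with length and GC content removed, a replicate block, and leaving out mice or libraries. The 31-mers were counted in GENCODE M21 transcripts. All 10 members are named. From the lists of other oxidoreductases and of retinol supply, the 3 most abundant called genes in each direction and the most abundant uncalled one are named. Results of 2 genes on the lists are not reported here. The members and lists were chosen with earlier results of these data known.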

Additional observations from a re-analysis of the deposited data

Results flagged for a closer look

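Each of the 10 genes was looked at for a library far from the other 3 of its diet, in 20 sets of 4 libraries, and 3 libraries stood out by Dixon's criterion. Chance gives about 1 in 20 sets. Aldh1a3 in control 2A, at 2.62 CPM, lay below the other control libraries at 8.46 to 9.29 CPM. Adh7 in VA-free 2A, at 7.52 CPM, lay above the other VA-free libraries at 1.70 to 2.20 CPM. Rdh13 in VA-free 3A, at 16.3 CPM, lay below the others at 18.1 to 18.2 CPM, and remained above every control library (8.81 to 13.7 CPM). Libraries A and B of a mouse share the animal, so the 4 libraries are not independent.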

How the results depend on the processing

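Aldh1a3 and Adh1 kept their direction and their call in all 26 settings, and Aldh1a2, Rdh13 and Rdh14 kept their direction. Taking 1 library per mouse gave 0.046 for Aldh1a1 (sign reversed), 0.98 for Aldh1a2 (no longer past the threshold) and 2156 genes higher. On log2(TPM + 1) and log2(TPM + 0.1), which moved the median of all genes to 0.19 and 0.35, the signs reversed for Aldh1a1 (0.28 and 0.29), Adh5 (0.19 and 0.19) and Rdh11 (0.22 and 0.23), Rdh10 passed (0.47 and 0.50) and Rdh14 did not (-0.10 and -0.10). With these 2 scales 5799 and 5867 genes were higher and 2637 and 2631 lower, beside 3403 and 4056, so 5 members passed but not the same ones. Without the trend with gene length, Adh5 (0.12) and Rdh10 (-0.39) reversed, Rdh13 (0.40) and Rdh14 (-0.28) did not pass, 2152 genes were higher and 3 members passed. With the trends of length and GC content removed, a setting chosen after the data had been seen, the values were 0.18 for Adh5, -0.35 for Rdh10, 0.38 for Rdh13 and -0.25 for Rdh14, with 2181 genes higher and 3 members past the threshold. The trend of GC content alone changed none of the 10 calls. In limma-voom on the 8 libraries Adh7 passed (-1.28).

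The labels do not say whether same-numbered mice were paired. The deviations of same-numbered mice correlated at -0.065 and 0.01. With 2 control mice the deviations of each mirror those of the other, so these values cannot decide whether same-numbered mice shared a batch. With the replicate block, Aldh1a2 (0.77), Rdh13 (0.71) and Rdh14 (-0.51) did not pass, Rdh10 was at -0.011 (sign reversed), and 2 of the members passed. The block changed no other call among the 10.

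Leaving out each mouse or library in turn gave ranges of -0.26 to 0.026 for Aldh1a1, 0.66 to 1.17 for Aldh1a2, -0.41 to -0.074 for Adh5, -1.75 to -0.44 for Adh7, -0.072 to 0.17 for Rdh10, 0.53 to 0.86 for Rdh13 and -0.80 to -0.38 for Rdh14. Between 3 and 6 of the members passed. The number of genes past the threshold lay between 4476, without control library 2B, and 7744, and the number higher lay between 1613 without that library and 3678. Where a control mouse was left out, the lone control mouse was taken to vary like the VA-free mice. The cause of these shifts was not tested. Depth limits the precision for Aldh1a3, Aldh1a7, Rdh12 and Adh7, whose counts on the VA-free diet were low. Expressed in TPM instead of counts, 14 of 21 transcript shares moved by more than the spread between libraries.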

Other observations

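Some enzymes of the same reactions were too low for the test and are given as estimated counts, chosen after their values had been seen. Adh4, a liver alcohol dehydrogenase encoded between Adh1 and Adh5, had 0 counts in all 4 VA-free libraries and 21, 59, 0 and 6 counts in control 1A, 1B, 2A and 2B. Adh6a had 2 counts in VA-free 1B and 0 in the other 7 libraries. Rdh7, Hsd17b6 and Sdr16c6 were at 0 in all 8 libraries. A count of 0 says only that no read was assigned at this depth.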
